A study of Mus musculus with 22 samples.

Results

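The fibrillar collagen genes encode the alpha chains that wind into the striated fibers of connective tissue, and they were followed here through the stroma of mouse tumors. The 10 members were taken by symbol: Col1a1, Col1a2, Col2a1, Col3a1, Col5a1, Col5a2, Col5a3, Col11a1, Col24a1 and Col27a1. They are 10 of the 41388 genes in the count tables, and each symbol matched 1 gene. Stromal cells had been sorted by a red fluorescent reporter (TdT) and by CD45, the pan-leukocyte surface protein encoded by Ptprc, and RNA of 22 sorted samples was sequenced. The 4 populations were TdT single positive (Osx+ CD45- in the labels), double negative (Osx- CD45-), double positive (Osx+ CD45+) and CD45 single positive (Osx- CD45+).

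All mice were C57BL/6, and the labels give an age of 56 days. They carried Osx-cre, in which the promoter of Osx (Sp7, a transcription factor of bone-forming cells) drives the Cre recombinase under tetracycline control, and the Ai9 reporter, which turns TdT on for good in any cell that has had Cre and in its progeny. TdT therefore marks a history of Cre activity and not current Sp7 expression. The wild type (WT) group was Osx-cre;Ai9. The second group was labelled Cdh2-cKO;Ai9, a conditional knockout of the cell adhesion gene Cdh2. Each genotype had 2 TdT single positive libraries and 3 of each other population. The labels name orthotopic MMTV-BO1 tumors, the design text names subcutaneous tumors, and the methods of the study name a subcutaneous PyMT-BO1 line whose fluorescent cells were separated from the stroma. The labels state that 6 Cdh2-cKO;Ai9 and 4 wild type mice were inoculated and that samples were picked by RNA integrity. Each genotype had 11 libraries, more than its mice, so some libraries must share a mouse, and the labels do not say which. The main fits treated the 22 libraries as independent, and their p-values do not allow for shared mice.

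The libraries held 16594228 to 26784003 counted reads each. The CD45 sorts were apart at the RNA level, but the CD45- libraries were not free of leukocyte RNA. The summed level of 8 leukocyte genes was 14386 to 22514 CPM (a gene's reads scaled to a common library total, with TMM factors) in the CD45+ libraries and 271 to 8755 in the CD45- ones. The highest CD45- value, 8755 CPM, belonged to WT double negative library 3. The TdT single positive libraries had 271 and 2357 CPM in WT and 5773 and 2390 CPM in Cdh2-cKO. Their median was 2373 CPM, against 502 CPM in the double negative libraries. WT CD45 single positive library 2 also stood apart, with 1818 CPM of Ptprc and 217 CPM of 6 endothelial genes against 9.05 to 37.6 CPM in the other CD45+ libraries. Results are given with and without this pair where they changed. Cdh2 was not lower in the libraries labelled Cdh2-cKO. In TdT single positive cells it stood at 9.13 and 5.18 CPM in WT and at 17.2 and 13.1 CPM in the libraries labelled Cdh2-cKO (log2 fold change 1.08 ± 0.84, SE; adjusted p = 0.668, edgeR). Counts per gene do not separate exons, so they cannot show whether part of the gene was deleted, but the genotype names below are those of the labels only. Sp7 itself had no count in the 4 TdT single positive libraries, and Bglap, a bone matrix gene, had at most 3 counts in each population. They are 2 of 8 osteoblast genes read as a list. The sum of the list was higher by median in both CD45+ populations, so it is not read as a measure of bone-forming cells. The medians were 9994 CPM in TdT single positive, 6526 in double negative, 18899 in double positive and 19803 CPM in CD45 single positive libraries. The list summed to 6685 to 12168 CPM in TdT single positive and 5341 to 7785 CPM in double negative libraries. In double positive libraries it summed to 6644 to 31106 CPM and in CD45 single positive ones to 4976 to 57074 CPM.

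Type I collagen, a heterotrimer of Col1a1 and Col1a2 chains, and type III, a homotrimer of Col3a1, are the main collagens of skin, vessel wall and tumor stroma, and fibroblasts are their usual source. Type V chains (Col5a1, Col5a2, Col5a3) are built into type I fibers and control their diameter. Types II and XI (Col2a1, Col11a1) belong to cartilage, and Col24a1 and Col27a1 form a separate, shorter branch of the family. Every chain carries a long run of Gly-X-Y triplets, which lets 3 chains pack into a helix.

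This repeat was visible in the gene structures. In the GENCODE M21 transcript with the longest coding sequence, the longest run of in-frame triplets starting with a glycine codon had between 337 triplets (Col5a3) and 344 (Col3a1) in 8 members, against 216 in Col24a1 and 217 in Col27a1. Each member had between 21 and 33 coding exons of exactly 54 bases, of which 21 to 32 began on a glycine codon and held 6 triplets. One such exon is shown for the members with the highest levels and for the 2 with the shorter repeat, so that the shared pattern and the different letters can be seen side by side. Glycine codons are in capitals, the coding strand is given 5′ to 3′, and positions are on GRCm38.
Col1a1, exon 26, chr11:94944355-94944408, plus strand: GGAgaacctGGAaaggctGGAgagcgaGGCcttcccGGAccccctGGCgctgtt
Col1a2, exon 27, chr6:4524117-4524170, plus strand: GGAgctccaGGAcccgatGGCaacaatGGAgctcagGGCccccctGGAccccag
Col3a1, exon 26, chr1:45334761-45334814, plus strand: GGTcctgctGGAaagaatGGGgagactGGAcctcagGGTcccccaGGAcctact
Col5a2, exon 29, chr1:45403116-45403169, minus strand: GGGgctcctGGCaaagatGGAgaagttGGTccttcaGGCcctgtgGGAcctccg
Col24a1, exon 28, chr3:145435412-145435465, plus strand: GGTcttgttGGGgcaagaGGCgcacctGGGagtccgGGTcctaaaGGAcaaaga
Col27a1, exon 28, chr4:63297811-63297864, plus strand: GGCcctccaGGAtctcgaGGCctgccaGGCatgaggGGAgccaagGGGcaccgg

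The 6 exons keep a glycine codon as the first of every 3 codons and differ between these positions. Despite the shared repeat, no run of 50 bases in the transcripts of 8 members was found in a transcript of another gene. In Col3a1 1.67% of such runs were shared with Gm47302, a gene model that overlaps it, and in Col5a1 1.44% were shared with Gm13372 or 2810430I11Rik, which lie on the other strand. Gm47302 lies on the same strand as Col3a1, so strand could not separate those reads. The study's methods kept only reads with 1 alignment and no ambiguity. Whether counting used strand is not given in the sources used here, so how reads in these stretches were counted is not known.

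Col1a1 (chr11:94936224-94953042, plus strand) was the highest, with 1217 CPM in the lowest of the 10 CD45- libraries, a median of 5525 and 22356 CPM in the highest. Col1a2 (chr6:4504814-4541543, plus strand) followed with 983, 4108 and 16198 CPM, and Col3a1 (chr1:45311538-45349706, plus strand) with 988, 2228 and 14592 CPM. Those 3 ranges overlapped widely.

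Among the type V chains, Col5a2 (chr1:45374321-45503282, minus strand, next to Col3a1 and on the other strand) had a median of 863 CPM over the CD45- libraries. Col5a1 (chr2:27886425-28039514, plus strand) had a median of 194 CPM and Col5a3 (chr9:20770050-20815067, minus strand) of 123 CPM. Col27a1 (chr4:63214004-63334991, plus strand) and Col24a1 (chr3:145292472-145552011, plus strand) were far lower, at medians of 16.6 and 3.10 CPM. The cartilage chains were near the limit of detection. Col11a1 (chr3:114030540-114220718, plus strand) had 189 counts in the 10 CD45- libraries together, and Col2a1 (chr15:97975602-98004695, minus strand) had 10 there and 6 in the 12 CD45+ libraries. Col2a1 did not pass the filter on low counts, and 9 members were tested. The filter asked for over 1 CPM in 2 libraries or more. Col11a1, Col24a1 and Col27a1 passed it through CD45- libraries alone, with no CD45+ library over 1 CPM, so that their inclusion depends on the group in which they are high. The other 6 members tested also passed on the CD45+ libraries alone.

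**Figure D1:**
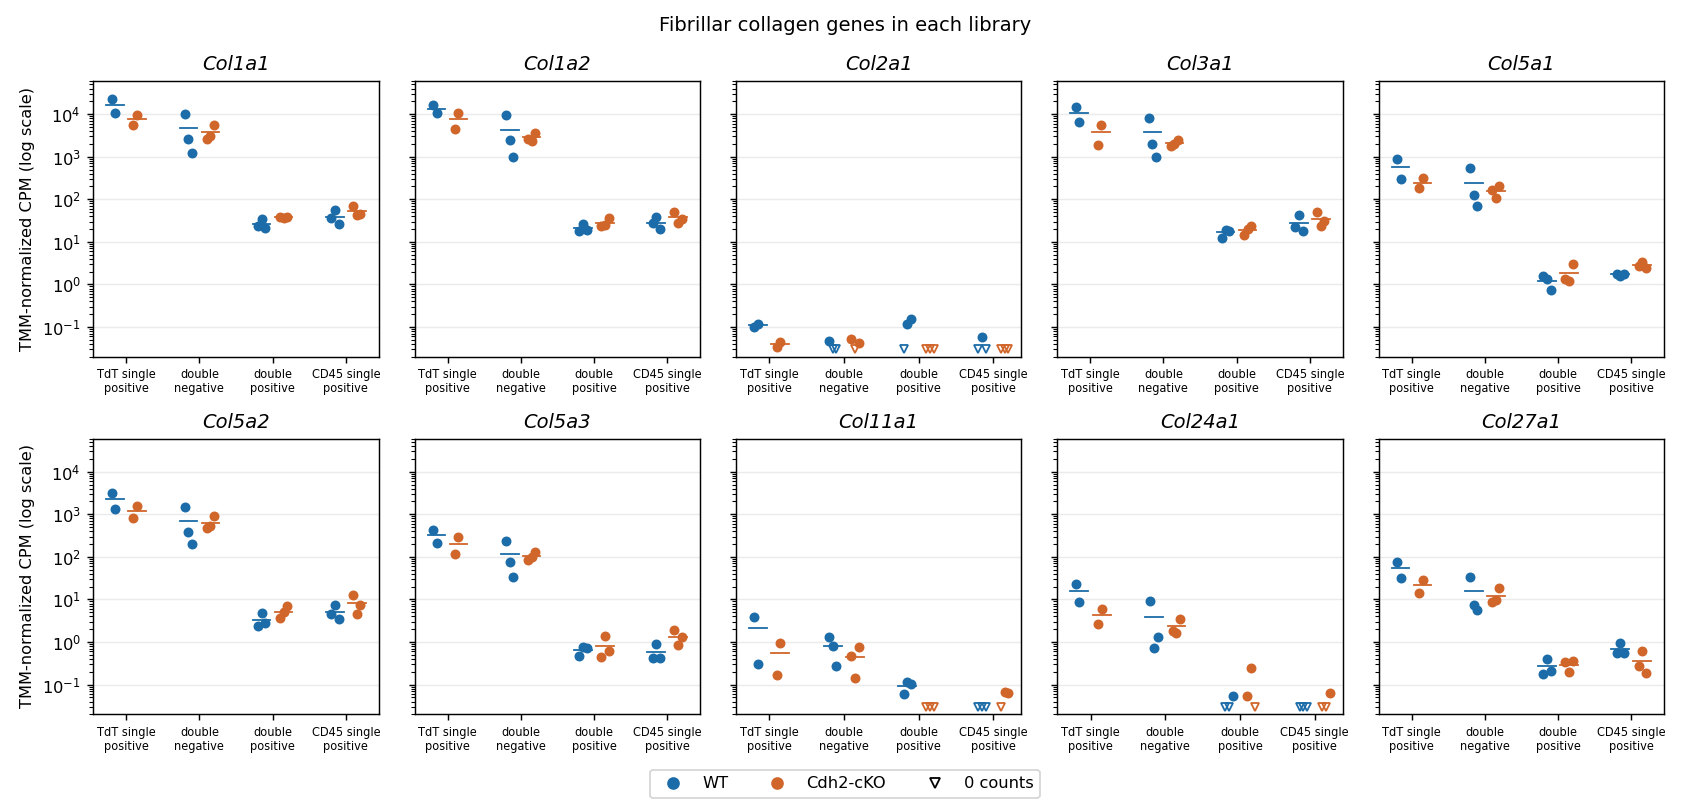
Normalized level of each member (TMM-normalized CPM, log scale) in the 22 libraries, by sorted population; each point is 1 library, the short lines are group means, and open triangles at the bottom mark 0 counts. Col1a1 spans 1217 to 22356 CPM in the CD45- libraries and 21.3 to 68.1 CPM in the CD45+ ones. Col11a1 is near the limit of detection, with 0.145 CPM in its lowest CD45- and 0.117 CPM in its highest CD45+ library. Col2a1 is near 0 throughout.

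The first comparison asked how far collagen transcripts separated the mesenchymal from the hematopoietic side of the stroma. The 6 members that passed the filter on the CD45+ libraries alone were all higher in CD45- than in CD45+ cells (edgeR quasi-likelihood test, adjusted p of at most 1.28e-10). Of the 15043 genes tested 31.1% were called higher in CD45- cells, and of the 12931 that passed on the CD45+ libraries alone 23.4%. For Col1a1 the 12 CD45+ libraries ran from 21.3 to 68.1 CPM with a median of 37.4. The lowest CD45- library was thus 17.9 times the highest CD45+ library. The log2 fold change was 7.51 ± 0.37 (SE; adjusted p = 6.4e-11).

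The other abundant chains differed by similar amounts. Col1a2 differed by 7.72 ± 0.38 and Col5a3 by 7.68 ± 0.38 on the log2 scale. Col5a2 differed by 7.64, Col3a1 by 7.46 and Col5a1 by 7.23. Over these 6 members the median log2 fold change was 7.58, against -0.17 over the 12931 genes that passed in the same way. In none of the 6 did a CD45+ library reach the lowest CD45- library, but the share of all genes without such overlap was not counted. All 6 were also called without WT double negative library 3 and WT CD45 single positive library 2. The 3 members admitted by their CD45- levels are given as a description only. Their fitted log2 differences were 7.56 ± 0.70 (Col24a1), 5.85 ± 0.37 (Col27a1) and 5.27 ± 0.73 (Col11a1). The highest CD45+ library had 0.242 CPM of Col24a1, 0.973 of Col27a1 and 0.117 of Col11a1, and the lowest CD45- library 0.715, 5.66 and 0.145 CPM. Col24a1 had 8 counts in the 12 CD45+ libraries together and Col11a1 had 7, so their values rest on few reads.

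Collagen transcripts were also counted in the CD45+ libraries. The 10 members took 0.362% to 6.02% of all counts in the CD45- libraries and 0.00542% to 0.017% in the CD45+ libraries. As a share of the CD45- median, the CD45+ median was 0.676% for Col1a1, 0.643% for Col1a2, 0.958% for Col3a1, 0.868% for Col5a1, 0.545% for Col5a2 and 0.609% for Col5a3. Col27a1 had the highest share, 2.08%. The 8 fibroblast genes summed to 1201 to 7585 CPM in the CD45- and to 11.9 to 91.5 CPM in the CD45+ libraries. One of them, Pdpn, had no count in any library. The CD45+ library highest in fibroblast genes, WT CD45 single positive library 2 (91.5 CPM), had 54.6 CPM of Col1a1. The highest Col1a1 level of the CD45+ libraries, 68.1 CPM, was in Cdh2-cKO CD45 single positive library 1, with 56.6 CPM of fibroblast genes. The part of carried-over fibroblast RNA in these values was not tested. In bulk RNA, fewer expressing cells and less RNA per cell cannot be told apart.

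Levels of different genes can be compared only per length. Per kilobase of the exon length in the deposited tables, Col1a1 made up a median of 47.4% of the summed fibrillar collagen signal in the CD45- libraries (range 44.9% to 55.0%). Col1a2 took 22.95%, Col3a1 20.8%, Col5a2 5.15%, Col5a1 1.57% and Col5a3 1.22%. Col27a1 took 0.0754%, and the rest less. In the CD45+ libraries the same shares were 49.8%, 20.15%, 20.6%, 4.51%, 1.77% and 1.03%. The orders matched apart from Col1a2 and Col3a1, whose ranges overlapped in both compartments.

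The length used matters for this family. The deposited tables give 12136 exonic bases for Col1a2, the union of all its transcripts, whereas the transcript with the longest coding sequence has 5348. With transcript lengths Col1a1 and Col1a2 drew level, at medians of 33.9% and 33.7% of the summed signal, and Col3a1 took 24.2%. The ratio of Col1a2 to Col1a1 chains thus ran from 0.357 to 0.592 over the CD45- libraries on the deposited lengths, and only its differences between libraries, which no length can change, were tested.

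**Figure D2:**
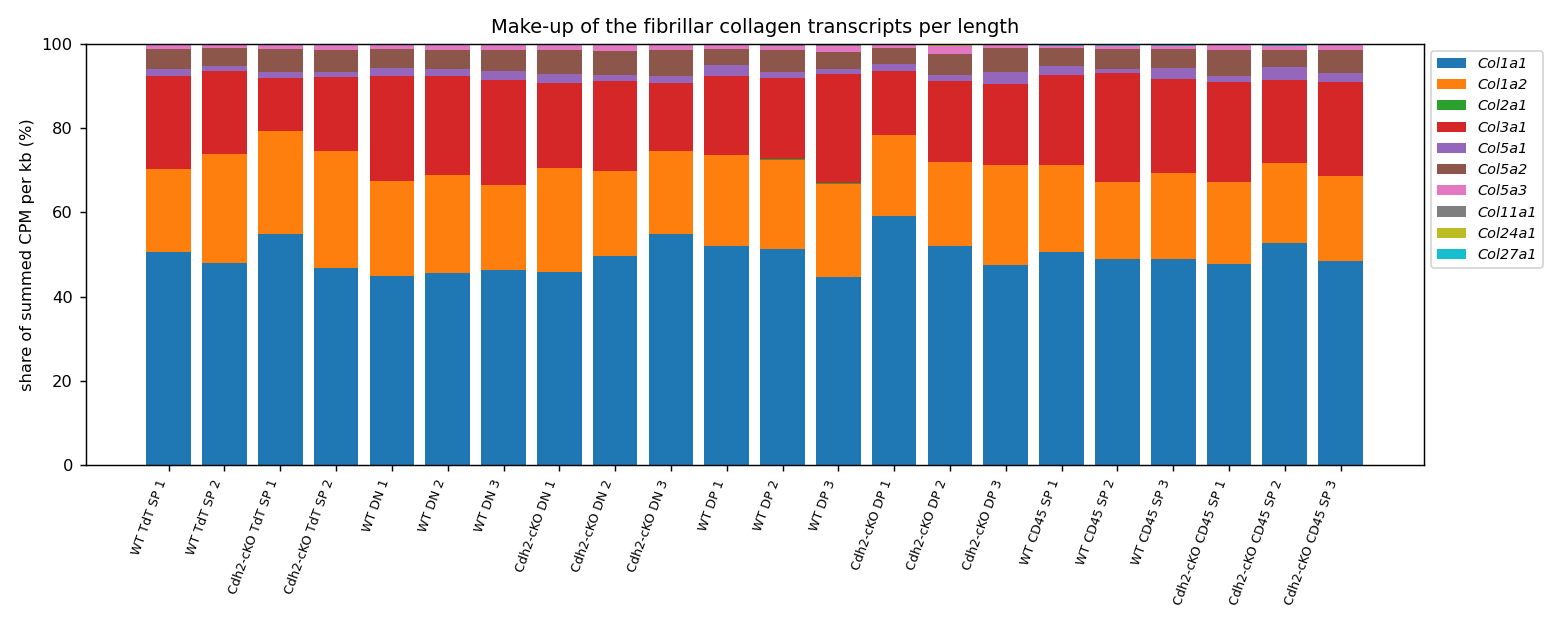
Share of each member in the summed CPM per kilobase of deposited exon length (percent), 1 bar per library; SP, DN and DP are single positive, double negative and double positive. Col1a1, Col1a2 and Col3a1 fill most of each bar in all 22 libraries, and Col1a1 takes 44.6% to 59.3% in the CD45+ libraries against 44.9% to 55.0% in the CD45- ones.

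The second comparison set the TdT single positive cells against the double negative cells, the TdT-negative remainder of the non-immune stroma. Every member tested had a higher fitted mean in TdT single positive cells, by 0.83 (Col11a1) to 1.54 (Col1a2) on the log2 scale, with a median of 1.31 against 0.07 over all genes. None passed the test with edgeR over the 22 libraries, where 1.23% of all genes were called higher. Of the 9, 8 had an unadjusted p under 0.05, as did 19.0% of all genes. The spread within the populations was large.

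Col1a1 stood at 22356 and 10498 CPM in the WT TdT single positive libraries. It stood at 5556 and 9811 CPM in those labelled Cdh2-cKO. The double negative libraries had 9999, 2627 and 1217 CPM in WT and 2670, 3098 and 5494 CPM in Cdh2-cKO. The populations overlapped through WT double negative library 1, whose 9999 CPM exceeded both TdT single positive libraries labelled Cdh2-cKO. Within each genotype every TdT single positive library was above every double negative one. The log2 fold change was 1.43 ± 0.43 (SE; adjusted p = 0.0904).

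Col1a2 separated in the same way, with 16198 and 10528 CPM in WT and 4593 and 10745 CPM in Cdh2-cKO TdT single positive libraries. The double negative libraries had 9327, 2482 and 983 CPM in WT and 2630, 2314 and 3623 CPM in Cdh2-cKO. Its log2 fold change was 1.54 ± 0.44 (adjusted p = 0.0726, the lowest of the members). The other members tested did not separate within both genotypes. The share of all genes that do so was not counted, so this is a description only.

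Col3a1 overlapped more. Its TdT single positive libraries had 14592 and 6478 CPM in WT and 1898 and 5519 CPM in Cdh2-cKO, and the double negative ones 8304, 2028 and 988 CPM and 1761, 1993 and 2427 CPM. WT double negative library 1 was above 3 of the 4 TdT single positive libraries. The log2 fold change was 1.16 ± 0.47 (adjusted p = 0.185).

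Type V chains gave similar sizes. Col5a2 had 3208 and 1354 CPM in WT and 818 and 1592 CPM in Cdh2-cKO TdT single positive libraries, against 1495, 393 and 196 CPM and 476, 522 and 909 CPM in double negative ones (log2 fold change 1.32, adjusted p = 0.134). Col5a1 had 876, 302, 179.8 and 312 CPM against 531, 123 and 68.5 CPM in WT and 163, 109 and 209 CPM in Cdh2-cKO (log2 fold change 0.95, adjusted p = 0.254). Col5a3 had 430.3, 209, 118 and 289.9 CPM against 233, 76.8 and 32.8 CPM in WT and 83.2, 98.1 and 128 CPM in Cdh2-cKO (log2 fold change 1.23, adjusted p = 0.126). For each of the 3 chains WT double negative library 1 lay within the range of the TdT single positive libraries.

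Of the less abundant chains, Col27a1 had 77.0, 31.8, 14.5 and 28.5 CPM in the TdT single positive libraries and 33.05, 7.41, 5.66, 8.77, 9.63 and 18.7 CPM in the double negative ones (log2 fold change 1.31, adjusted p = 0.115). Col24a1 had 23.3, 8.51, 2.67 and 5.87 CPM against 9.41, 0.715, 1.32, 1.84, 1.65 and 3.54 CPM (log2 fold change 1.46 ± 0.66, adjusted p = 0.249). Col11a1 had 3.88, 0.310, 0.171 and 0.956 CPM against 1.29, 0.818, 0.275, 0.472, 0.145 and 0.749 CPM, and 76 of its 189 counts came from WT TdT single positive library 1 (log2 fold change 0.83 ± 0.74, adjusted p = 0.566). That library was the highest of the 10 for all 9 members. WT double negative library 3 was the lowest for 7 of them.

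The call depended on the test and on single libraries. With limma's voomWithQualityWeights, 6 of the 9 members were higher in TdT single positive cells (Col1a1, Col1a2, Col5a2, Col5a3, Col24a1 and Col27a1; lowest adjusted p = 0.0165), where 3.69% of all genes were. The study's methods name this tool, but there each population was set against the mean of all others. With DESeq2 it was 2 members, Col1a1 and Col1a2 (adjusted p = 0.0201 for Col1a2), against 3.44% of all genes. Without WT double negative library 1, 8 of the 9 members were called (every one but Col11a1), against 2.46% of all genes. Without the pair of libraries that stood apart, Col1a1 and Col1a2 were called, against 7.54% of all genes, and without WT double negative library 3 alone Col1a2 was, against 4.37%. Each of these fits put every member higher in TdT single positive cells.

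The replicate numbers in the labels gave a further view of this comparison. Among the CD45- libraries, 4 pairs of a TdT single positive and a double negative library shared genotype and number. Their deviations from the group means correlated with r of 0.593 and 0.216 in WT and 0.113 and 0.166 in Cdh2-cKO. The number did not always mark the closest library, as WT TdT single positive library 2 had r of 0.427 with WT double negative library 3. In a group of 2 libraries the 2 deviations mirror each other. The TdT single positive library was the higher one in all 4 pairs for 8 of the 9 members, as for 20.8% of all genes. For Col1a1 it was 2.08 to 4.00 times the double negative library, for Col1a2 1.74 to 4.64 times and for Col5a2 1.72 to 3.45 times. Col3a1 ran from 1.08 to 3.19 times, and Col11a1 was higher in 2 of the 4 pairs.

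With the number as a block in a fit of the 10 CD45- libraries alone, 5 of the 9 members were called higher (edgeR), against 6.24% of all genes. They were Col1a1 (log2 fold change 1.39, adjusted p = 0.0158), Col1a2 (1.39, adjusted p = 0.0296), Col5a2 (1.24, adjusted p = 0.0184), Col5a3 (1.02, adjusted p = 0.0297) and Col27a1 (1.32, adjusted p = 0.0218). Col3a1, Col5a1 and Col24a1 had adjusted p of 0.0607, 0.0686 and 0.0546. The same 10 libraries without the block gave no called member, against 0.0139% of all genes, and a block over all 22 libraries gave none either, against 1.01%. The labels do not say what a number shares, and with 2 TdT single positive libraries in a genotype its pairs are not independent of each other. This fit was chosen after the data were seen.

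**Figure D3:**
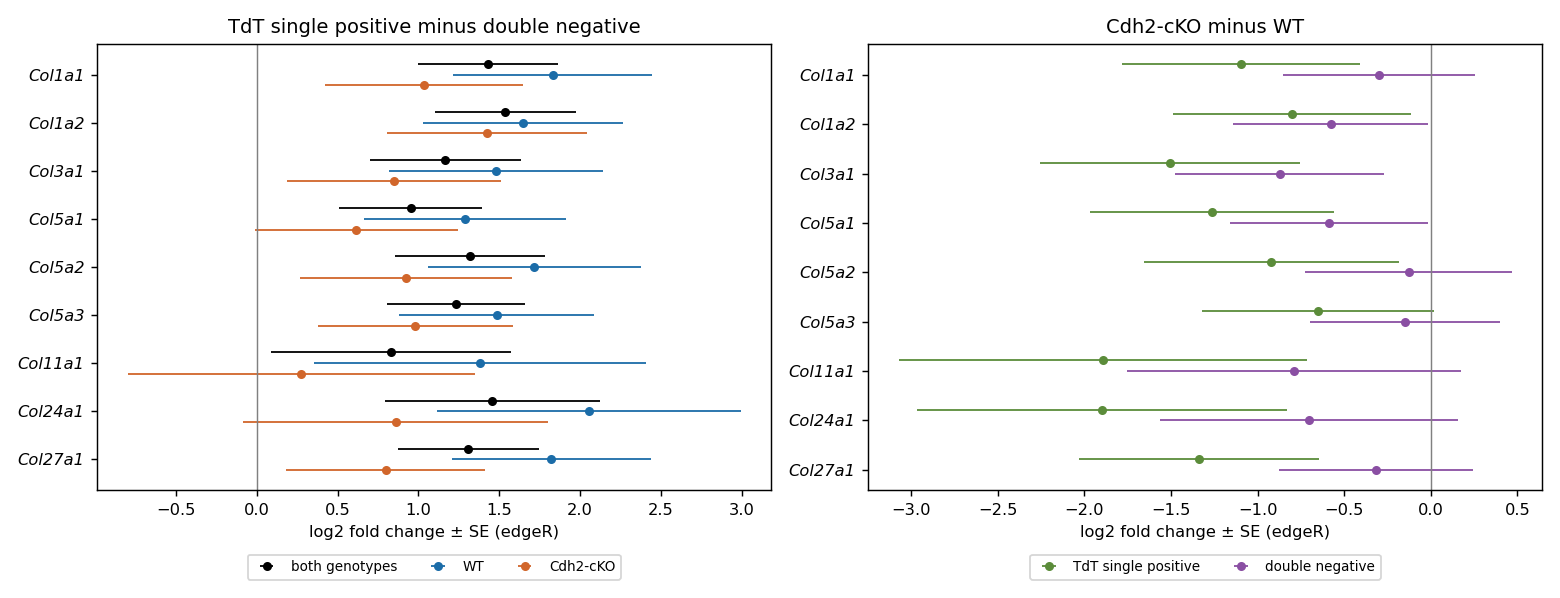
Log2 fold changes of the 9 members tested, with SE, from edgeR: TdT single positive minus double negative cells on the left, for both genotypes together and each alone, and Cdh2-cKO minus WT on the right within each of these populations. All points on the left lie above 0, from 0.28 (Col11a1, Cdh2-cKO) to 2.05 (Col24a1, WT), and all points on the right below 0, from -1.90 to -0.13, with none called in this fit over 22 libraries.

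Markers of several cell types were read beside these levels. The 8 fibroblast genes summed to 1944 to 7585 CPM in the TdT single positive and to 1201 to 5193 CPM in the double negative libraries. WT double negative library 1, the one as rich in collagen as TdT single positive cells, had 5193 CPM of them, and WT double negative library 3, the poorest, had 1201. Markers of pericytes and smooth muscle ran from 895 to 3313 CPM and from 257 to 1776 CPM, those of luminal epithelium from 33.9 to 934 CPM and from 504 to 1992 CPM. The leukocyte genes ran from 271 to 5773 CPM and from 284 to 8755 CPM. Reads on rRNA genes took 0.421% to 1.34% of the counts in TdT single positive and 1.04% to 5.28% in double negative libraries. The part of these differences in the collagen levels was not tested.

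Levels were also set against the summed fibroblast genes of the same library. The ratio of Col1a1 to the fibroblast sum was 1.98 to 3.27 in the 4 TdT single positive and 0.898 to 1.93 in the 6 double negative libraries. For Col1a2 the ratios were 1.99 to 3.58 and 0.818 to 1.80. Neither gene overlapped on this scale, whereas the ratios of Col3a1 did (0.976 to 1.92 against 0.694 to 1.60), as did those of Col5a1, Col5a2 and Col5a3. These ratios are a description of the 10 libraries, and no test was made on them. How many of all genes separate on this scale was not counted.

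**Figure D4:**
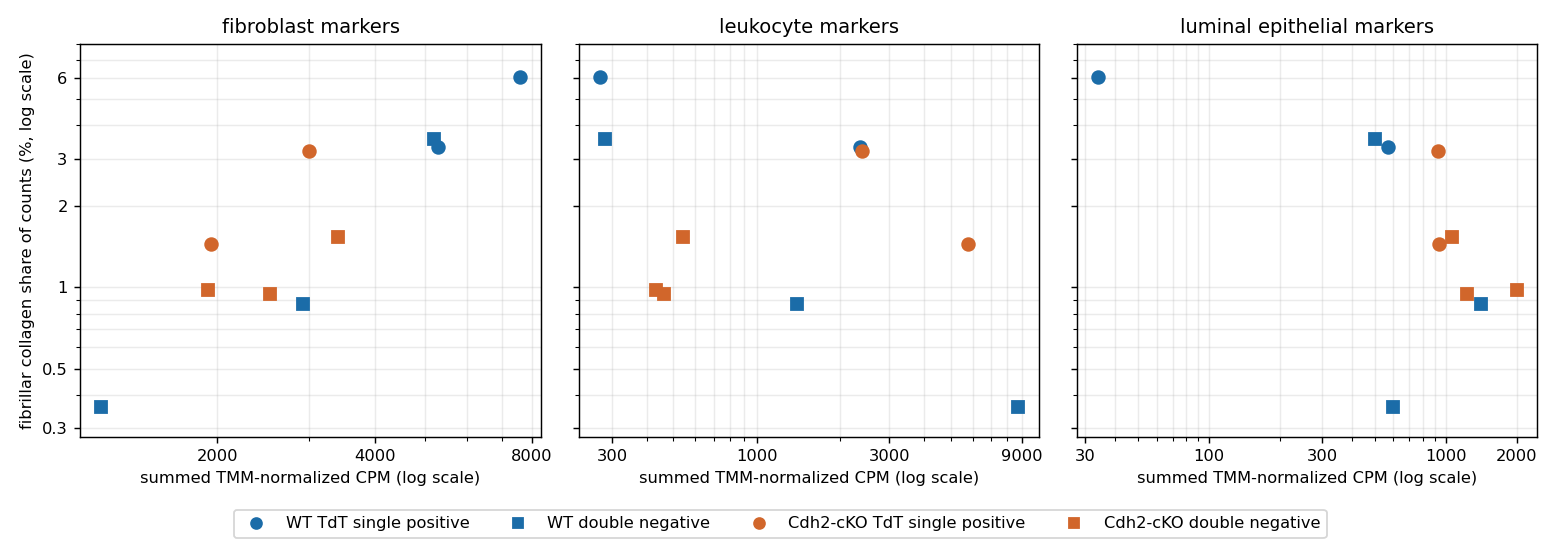
Share of all counts taken by the 10 members (percent, log scale) against the summed level of fibroblast, leukocyte and luminal epithelial marker genes (TMM-normalized CPM, log scale), 1 point per CD45- library. The share runs from 0.362% in WT double negative library 3, which has the fewest fibroblast and the most leukocyte marker counts, to 6.02% in WT TdT single positive library 1.

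The 4 ratios between chains were tested between the 4 TdT single positive and the 6 double negative libraries, since a ratio within a library does not depend on its depth. An exact two-sided permutation test was used on the log2 ratios of counts per kilobase, with p-values adjusted over the 4 ratios. Libraries were permuted without regard to genotype, and the smallest p the test can give is 0.00476. The log2 ratio of Col1a2 to Col1a1, the chains of type I, was -1.04 ± 0.27 (SD, n = 4) in TdT single positive and -1.14 ± 0.23 (SD, n = 6) in double negative cells (exact permutation p = 0.519, adjusted 0.519). For Col3a1 to Col1a1 it was -1.504 ± 0.43 and -1.14 ± 0.34 (exact permutation p = 0.186, adjusted 0.248). This ratio also differed by genotype, with means of -1.24 and -0.89 in WT and of -1.77 and -1.39 in Cdh2-cKO. The p-value over both genotypes therefore does not show that the populations have the same ratio.

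The ratio of Col5a1 to Col1a1 had means of -5.30 ± 0.19 in TdT single positive and -4.77 ± 0.32 in double negative cells, or 0.691 times as large (exact permutation p = 0.0286, adjusted 0.114). Col5a2 to Col5a1 was 1.97 ± 0.20 and 1.59 ± 0.34 (exact permutation p = 0.081, adjusted 0.162). None of the 4 passed after adjustment. The test for Col3a1 and Col5a1 did pass when Cdh2-cKO double negative library 3 was left out (adjusted exact permutation p = 0.0476 for both).

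Within CD45+ cells, the presence of TdT made no called difference. Col1a1 ran from 21.3 to 39.0 CPM in double positive libraries (median 34.7) and from 25.9 to 68.1 CPM in CD45 single positive ones (median 44.0), and the ranges overlapped. Col3a1 ran from 12.6 to 23.5 CPM and from 17.7 to 50.4 CPM. No member was called (0.00665% of all genes were, edgeR), and none had an unadjusted p under 0.05, which 4.06% of all genes had. Neither voomWithQualityWeights (0.00665% of all genes) nor DESeq2 (0.0399%) called a member. The fitted log2 fold changes of the 6 abundant chains lay between -0.81 (Col3a1) and -0.28 (Col5a3). In CD45- cells the same 6 chains had values between 0.95 and 1.54.

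The third question was whether the genotype label changed collagen expression. In TdT single positive cells all 9 members had lower fitted means in the libraries labelled Cdh2-cKO, by 0.65 (Col5a3) to 1.90 (Col24a1) on the log2 scale, with a median of -1.26 against -0.0031 over all genes. No member was called (0.00665% of all genes were, edgeR; adjusted p from 0.498 to 0.751) and none had an unadjusted p under 0.05, against 10.5% of all genes. Col1a1 changed by -1.10 ± 0.69 and Col3a1 by -1.51 ± 0.75. With voomWithQualityWeights 3 members and with DESeq2 1 member had an unadjusted p under 0.05, against 11.0% and 12.4% of all genes. Neither called any member, and they called 0% and 0.911% of all genes. Only 2 libraries stood on each side. For Col1a1, both libraries labelled Cdh2-cKO (5556 and 9811 CPM) were under both WT libraries (10498 and 22356), while for Col1a2 one of them (10745) was over the lower WT library (10528). The fibroblast genes summed to 1944 and 3003 CPM in the former and to 7585 and 5290 CPM in the latter, and the leukocyte genes to 5773 and 2390 CPM against 271 and 2357 CPM, whose part was not tested.

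In double negative cells the fitted differences between genotypes were smaller, between -0.87 (Col3a1) and -0.13 (Col5a2) on the log2 scale, with adjusted p of at least 0.839 (0% of all genes called). None had an unadjusted p under 0.05, against 9.59% of all genes. The 3 Cdh2-cKO libraries lay between the extremes of the WT libraries for every member tested but Col11a1. Without WT double negative library 1 the sign turned for 8 of the 9 members, with Col1a1 at 0.97. No member was called in that fit, where 4.03% of all genes were. In double positive cells (0% of all genes called) and CD45 single positive cells (0% of all genes called) no member was called either. Col1a1 differed there by 0.53 ± 0.56 and 0.42 ± 0.56. One member, Col11a1, had an unadjusted p under 0.05 in double positive cells (as did 3.42% of all genes), on 5 counts against 0.

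A further pair of tests asked whether the effects themselves differed by genotype. The TdT effect in CD45- cells was smaller in Cdh2-cKO for every member in the fit, from -1.19 (Col24a1) to -0.22 (Col1a2), with adjusted p of at least 0.83 (0.00665% of all genes called). No member had an unadjusted p under 0.05, against 10.1% of all genes. Without WT double negative library 1, 8 members had an unadjusted p under 0.05 in this comparison, as did 16.1% of all genes. The lowest adjusted p was 0.0849 and no member was called, against 4.27% of all genes. With the block over the CD45- libraries alone no member was called either (0% of all genes), and the fitted difference of Col1a1 was -0.22. The CD45 effect differed by -1.17 ± 0.59 for Col1a1 and by -1.59 ± 0.64 for Col5a1, with adjusted p of at least 0.606 for all members (0% of all genes called, edgeR). Col3a1 and Col5a1 had an unadjusted p under 0.05 for the CD45 effect, as did 7.69% of all genes. Neither voomWithQualityWeights (0% of all genes called in both tests) nor DESeq2 (3.72% for the TdT effect and 0.206% for the CD45 effect) called a member.

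Making a collagen fiber takes a series of enzymes and partners, which were read as 9 lists with 65 genes tested between them. Of these, 17 passed the filter through CD45- libraries alone and are left out of the counts between CD45- and CD45+ cells. Of the 48 others 42 were higher in CD45- cells and 2 lower, with a median log2 fold change of 3.39. Over the 12931 genes that passed on the CD45+ libraries, 23.4% were higher and 37.8% lower, and the shares of each list below are to be read against these.

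In TdT single positive against double negative cells none of the 65 was called with edgeR, where 1.89% of all genes were. An unadjusted p under 0.05 was found for 23 of the 65 and for 19.0% of all genes. With voomWithQualityWeights 12 were called higher, against 3.69% of all genes. With DESeq2 3 were higher (Fkbp10, Sec24d and Mmp8), against 3.44% of all genes, and 1 was lower (Scx), against 3.12%, shares close to those of the list. Without WT double negative library 1 edgeR called 10 higher, against 2.46%, and with the block over the CD45- libraries alone 17 higher and 2 lower, against 6.24% and 3.46% of all genes. The median log2 fold change was 0.62, against 1.31 for the collagens.

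None was called between genotypes within a population with edgeR. Up to 7 of the 65 had an unadjusted p under 0.05, in TdT single positive cells, where 10.5% of all genes did. DESeq2 called 1 lower in TdT single positive cells labelled Cdh2-cKO (Itga11), against 0.186% of all genes. In double negative cells it called 2 lower (Lair1 and Mmp8, genes of leukocytes), a share close to the 3.28% of all genes. The leukocyte genes summed to 284 to 8755 CPM in the WT and 431 to 542 CPM in the Cdh2-cKO double negative libraries, and their part was not tested.

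Chain modification comes first. Prolyl and lysyl hydroxylases and their partners had 9 of 11 genes higher in CD45- cells (median log2 fold change 0.94). One of them, Plod3, a lysyl hydroxylase, lost its call when WT double negative library 1, WT TdT single positive library 1 or Cdh2-cKO TdT single positive library 2 was left out (log2 fold change 0.56 ± 0.21, adjusted p = 0.0264 with all libraries and 0.0507 to 0.127 without 1 of these). The most abundant, P4hb, is also a general protein folding enzyme and had medians of 1069 CPM in TdT single positive, 805 in double negative, 909.9 in double positive and 773 CPM in CD45 single positive cells, with no call (log2 fold change 0.28, adjusted p = 0.0888). Plod1, of the same enzyme family as Plod3, had 438, 350.5, 222 and 209.7 CPM, and Ppib, a prolyl isomerase of the endoplasmic reticulum, 332, 302, 249.5 and 257 CPM. Folding and export had 8 of 8 higher (median 3.36). Serpinh1, which encodes the collagen chaperone HSP47, had medians of 4283, 2449, 14.4 and 21.6 CPM in the same order, and a log2 fold change of 7.51 between CD45- and CD45+ cells, the same as that of Col1a1. Fkbp10, a further chaperone, fell just short in the TdT comparison (log2 fold change 1.48 ± 0.39, adjusted p = 0.0562; called with the block). Sec23a, a coat protein of secretory vesicles, had 138, 89.0, 45.7 and 46.9 CPM.

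Outside the cell, propeptides are cut off and fibers cross-linked. All 5 genes of propeptide cleavage counted were higher in CD45- cells (median log2 fold change 5.73), led by Pcolce, which enhances cleavage (1220, 1035, 14.2 and 21.5 CPM), Bmp1, which removes the C-propeptide (364, 245, 3.93 and 6.18 CPM), and Adamts2, which removes the N-propeptide (290, 112, 1.13 and 0.906 CPM). Both cross-linking enzymes that passed on the CD45+ libraries were higher too. These were Loxl3, with 290, 241, 8.37 and 8.26 CPM, and Lox, with 213, 117, 0.564 and 2.02 CPM. Loxl1, admitted by its CD45- levels, had 142, 58.1, 0.488 and 0.528 CPM.

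Partners on the fiber surface followed. Of the 9 fibril-associated collagens 3 were tested. Col12a1 was higher in CD45- cells (785, 349, 3.20 and 4.25 CPM). Col14a1 (82.3, 42.2, 35.9 and 24.5 CPM) only just passed, with a log2 fold change of 0.88 ± 0.37 (adjusted p = 0.0468). It lost the call in 16 of the 22 fits that left out 1 library (adjusted p of 0.0537 to 0.122 in these), WT double negative library 1 among them (0.084), and with the replicate block (0.123). Col16a1, admitted by its CD45- levels, had 21.1, 19.6, 0.575 and 0.333 CPM. Of the fibril-binding proteins 6 of 7 were higher. Sparc, a collagen-binding matrix protein, had 15578, 10532, 79.6 and 149.8 CPM, and the proteoglycan Bgn 4431, 2089, 16.8 and 30.02 CPM. The exception was Fn1, fibronectin, at 3104, 2875, 4127 and 3309 CPM (log2 fold change -0.24, adjusted p = 0.332).

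Receptors and proteases split between the compartments. Among collagen receptors 4 of 5 were higher in CD45- cells, such as Ddr2, a receptor kinase for fibrillar collagen (88.5, 98.9, 1.80 and 3.35 CPM). Mrc2, an uptake receptor admitted by its CD45- levels, had 62.5, 21.02, 0.305 and 0.978 CPM. Lair1, an inhibitory collagen receptor of leukocytes, was lower (70.7, 9.81, 452 and 457 CPM; log2 fold change -3.34 ± 0.64). Of the collagen-cleaving enzymes 4 of 6 were higher and Mmp8, the neutrophil collagenase, was lower (log2 fold change -3.30 ± 0.34). Mmp13, a fibroblast collagenase, was not called (533, 189, 270.1 and 408 CPM). Ctsk, a lysosomal collagenase, had 719, 305, 102 and 107 CPM, and Mmp2, a gelatinase, 471, 216, 9.81 and 7.87 CPM. All 3 transcription factors of the list that passed on the CD45+ libraries were higher in CD45- cells. Creb3l1, which drives type I collagen genes in bone, had 56.5, 19.9, 4.42 and 4.44 CPM, and Runx2, of the bone lineage, 40.4, 24.2, 16.9 and 13.7 CPM. Creb3l1 was also counted under folding and export, so these lists are not separate. Sox9, a factor of cartilage and of some epithelia, had 88.3, 224, 9.32 and 15.4 CPM, and its log2 fold change between TdT single positive and double negative cells was -1.40 (adjusted p = 0.231).

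Across the 10 CD45- libraries, the genes outside the family that followed Col1a1 most closely were Col6a1 and Col6a2, chains of the beaded-filament collagen VI, with Pearson's r of 0.997 and 0.992 over log2 CPM. Hs3st1, a heparan sulfate sulfotransferase, had 0.990, and Arhgef25 and Msrb3 0.985 each. They were taken from 8323 genes with a mean of at least 10 CPM. Within the family Col5a2 had 0.995, Col27a1 0.984, Col1a2 0.983, Col5a3 0.983, Col5a1 0.955 and Col3a1 0.948. The 10 libraries differ in genotype, population and cell mixture at once, so these values are a description and were given no p-value.

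Since the members with a mean of at least 10 CPM varied together across libraries, promoters of the family were read for 3 common elements. Col2a1, Col11a1 and Col24a1 were under that level and have no such value. RefSeq promoters (GRCm38.p6) were at hand for 7 members: Col1a2, Col3a1, Col5a1, Col5a3, Col11a1, Col24a1 and Col27a1. In the 250 bases before the start site, TATAAA was found on either strand in 1 of the 7 (Col3a1), against 12.4% of 32851 promoters. CCAAT was found in 3 (Col1a2, Col5a3 and Col11a1), against 33.8%, and GGGCGG in 5 (these 3, Col5a1 and Col27a1), against 32.7%. Col24a1 held none of these letters. The upstream stretches of 3 genes that followed Col1a1 are printed so that the matched letters, in capitals, can be compared (CCGCCC is GGGCGG on the other strand). They are not the 3 closest: Col3a1, the only one with TATAAA, had the lowest r of the members given (0.948). The RefSeq start of Col1a2 lies downstream of the gene start in the count tables.
Col1a2, chr6:4505368-4505617, plus strand: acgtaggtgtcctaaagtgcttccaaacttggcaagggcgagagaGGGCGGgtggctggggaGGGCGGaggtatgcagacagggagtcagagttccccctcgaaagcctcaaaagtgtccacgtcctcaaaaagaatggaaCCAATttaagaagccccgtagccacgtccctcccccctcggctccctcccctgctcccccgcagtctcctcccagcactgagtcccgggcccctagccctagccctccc
Col3a1, chr1:45311288-45311537, plus strand: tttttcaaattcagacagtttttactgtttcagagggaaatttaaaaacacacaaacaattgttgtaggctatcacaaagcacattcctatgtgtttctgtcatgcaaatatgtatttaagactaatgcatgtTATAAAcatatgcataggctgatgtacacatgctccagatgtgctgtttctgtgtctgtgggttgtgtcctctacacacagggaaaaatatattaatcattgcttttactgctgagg
Col5a3, chr9:20815068-20815317, minus strand: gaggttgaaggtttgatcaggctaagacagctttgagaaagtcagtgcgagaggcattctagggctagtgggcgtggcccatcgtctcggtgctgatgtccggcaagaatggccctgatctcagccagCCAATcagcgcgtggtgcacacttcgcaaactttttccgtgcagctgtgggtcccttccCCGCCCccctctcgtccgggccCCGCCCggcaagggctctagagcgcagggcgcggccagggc

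The element with the highest share among the members, GGGCGG, was also present in 32.7% of all promoters, and a match of 5 or 6 letters is a description and not a binding site.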

How the data were processed

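RNA of 22 sorted tumor stroma samples was sequenced after cDNA amplification with a Clontech SMARTer kit. Per the submitters' processing notes and the study's methods, the authors aligned reads to GRCm38 with STAR 2.0.4b and assigned them to Ensembl genes with featureCounts. Values deposited as counts are raw read numbers. The deposited CPM and RPKM are the same counts scaled by the authors by library total and exon length, from which they deviated by at most 5.1e-14. Only the counts were analysed.

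Symbols matched 40254 of 41388 genes. After removal of 355 rRNA genes, a gene needed over 1 CPM in 2 libraries or more, which 15043 had. Library sizes were scaled by TMM. edgeR 4.0.16 (R 4.3.3) fitted quasi-likelihood models with 8 group means over 22 libraries, with calls at an adjusted p (Benjamini-Hochberg) not above 0.05. SEs were derived from the test statistic. The study's methods use voomWithQualityWeights (limma 3.58.1), run as an alternative with DESeq2 1.42.0, RLE factors, no filter, a replicate block, each genotype alone and each library left out. Counts were not deduplicated, and 3 counts were taken as the limit of detection (0.103 to 0.200 CPM after scaling). The fit was tested on simulated data. Same-numbered libraries of a genotype correlated in their deviations from the group means with r of 0.113 to 0.593 in all 4 pairs of TdT single positive and double negative libraries, over the limit of 0.1 set for pairing, and with r of -0.29 to 0.41 in the 26 other pairs, of which 6 were over it. A fit of the CD45- libraries alone with the number as a block was therefore added after the data were seen. Libraries with different numbers could correlate too, with r of 0.427 for WT TdT single positive library 2 and WT double negative library 3. Replicates of a group differed by at least 54.9 times the counting variance (mean chi-square per gene), so all were counted as separate libraries. This check cannot tell whether they came from separate mice, since 2 libraries of 1 mouse can also differ by more than counting.

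The genes named are the 10 members, Cdh2, Sp7 and Ptprc, the 3 most abundant tested genes of each list with any called, and the 5 most like Col1a1. Mmp8, Sec24d, Scx, Itga11, Plod3, Bglap and Pdpn were named after their values were seen. Members, lists and markers were chosen with earlier results of these data known. P-values measure the spread between libraries, some of which must share a mouse that the labels do not name.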

Additional observations from a re-analysis of the deposited data

How the results depend on the processing

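Between CD45- and CD45+ cells the 6 members that passed the filter on CD45+ libraries were called in every alternative run. Between TdT single positive and double negative cells, where none was called, 6 were called with voomWithQualityWeights, 2 with DESeq2, 1 (Col1a2) in the Cdh2-cKO libraries alone (7.72% of all genes called higher), 2 without both libraries that stood apart, and 0 to 8 when 1 library was left out (8 without WT double negative library 1, 1 without WT double negative library 3). Fits with RLE factors or without the filter called 0. The replicate block over all 22 libraries called 0, and over the CD45- libraries alone, where same-numbered libraries deviated together, 5. It changed the call of no member in another comparison. In the comparisons of genotypes 0 members were called in every alternative.

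Signs turned mostly for the genotype in double negative cells, where the cause was not tested. There voomWithQualityWeights gave 0.26 for Col1a1, 0.02 for Col1a2, 0.05 for Col5a1, 0.44 for Col5a2, 0.30 for Col5a3, 0.86 for Col24a1 and 0.34 for Col27a1, and the replicate block 0.03 for Col1a1, 0.17 for Col5a2, 0.17 for Col5a3 and 0.02 for Col24a1. Leaving out 1 library gave -0.73 to 0.97 for Col1a1, -1.03 to 0.72 for Col1a2, -1.31 to 0.45 for Col3a1, -1.01 to 0.74 for Col5a1, -0.55 to 1.11 for Col5a2, -0.57 to 0.91 for Col5a3, -1.19 to 1.20 for Col24a1 and -0.74 to 0.92 for Col27a1. Col11a1, with few counts, ran from -0.54 to 1.27 for TdT in CD45- cells, from -3.56 to 0.83 for the genotype in TdT single positive cells, from -2.77 to 1.62 for the difference of the TdT effect and from -1.64 to 0.55 for that of the CD45 effect. In CD45+ cells, Col5a3 had 0.16 for TdT in the WT libraries alone and, for the genotype in double positive cells, -0.01 with voomWithQualityWeights and -0.34 to 0.58 without 1 library. Col27a1 ran from -0.07 to 0.57 there, and Col3a1 from -0.02 to 0.80 in CD45 single positive cells. The difference of the TdT effect without 1 library ran from -1.53 to 0.26 for Col1a2 (0.22 without both libraries that stood apart), -1.96 to 0.07 for Col3a1, -2.01 to 0.29 for Col5a1 and -1.57 to 0.11 for Col5a3. With the block over the CD45- libraries alone it was 0.07 for Col1a2 and 0.36 for Col11a1. For the CD45 effect Col27a1 had 0.03 with the replicate block and -0.70 to 0.20 without 1 library. The ratio of Col1a2 to Col1a1 had a difference of -0.07 in WT alone, and without 1 library that of Col3a1 to Col1a1 ran from -0.49 to -0.15 and that of Col5a1 to Col1a1 from -0.62 to -0.46.

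Depth limits Col2a1, Col11a1 and Col24a1, whose CD45+ levels are at or near the limit of detection. Only 2 TdT single positive libraries per genotype bound every genotype comparison there.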
